A study of Mus musculus with 12 samples.

Results

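Neutrophils of Card9-/- and wild-type mice that had rested on the control surface, without immune complexes, were compared on 6 of the 12 arrays of the series, chosen by their titles and paired by experiment number (experiments 1, 2 and 3, each with 1 array per genotype). The wild-type mice were C57BL/6, and the Card9-/- mice were homozygous for the Card9 tm1Jrld knockout in every tissue, not in neutrophils alone, on that background. The cells were bone marrow neutrophils, labelled Ly6G+, kept for 4 h on the control surface, which carried human serum albumin but no antibody. The other 6 arrays hold the same genotypes on immobilized immune complexes (IC), the albumin with antibodies bound to it. They are used here beside the control surface and in the shared estimate of the spread. For each array 150 ng of total RNA were amplified, and the values are log2 signals of transcript clusters, the sets of probes that read usually 1 gene. The number of mice behind an array was not given. The p values and standard errors rest on the spread left after the experiment is taken out, shared over all 12 arrays and both surfaces. They do not measure the spread of the control-surface differences alone, or that between mice. Arrays of the same genotype and experiment on both surfaces entered as independent, so p values and standard errors can be too small.

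CARD9 is a caspase recruitment domain adaptor of myeloid cells. Behind Syk-coupled receptors it is phosphorylated by protein kinase C delta and assembles with BCL10 and MALT1, which leads to the release of NF-kB from its inhibitors. It is best known for antifungal defence through the C-type lectins Dectin-1, Dectin-2 and Mincle, and in neutrophils it also acts behind Fc receptors that bind immune complexes. The comparison asks how the transcripts of neutrophils without CARD9 differ before immune complexes are added.

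The array medians lay between 5.27 and 5.93. On the wild-type and Card9-/- arrays of the control surface they were 5.72 and 5.71 in experiment 1. They were 5.86 and 5.93 in experiment 2, and 5.27 and 5.37 in experiment 3. Signals of the genotypes correlated at 0.993 to 0.995 within an experiment, taken across clusters, which are not independent replicates. Ly6g, the antigen of the label, had a mean signal of 12.37, and the 21 measured genes of secondary and tertiary granules and mature neutrophils averaged at least 11.75 on each of the 6 arrays. Experiments also differed in sex-linked transcripts. Xist lay between 10.4 and 10.8 on all arrays of experiments 1 and 2 and between 3.16 and 3.79 in experiment 3, and the Y-linked Eif2s3y lay between 2.25 and 2.73 in experiments 1 and 2 and between 8.72 and 9.18 in experiment 3. Both genotypes matched within each experiment, and sex and experiment cannot be told apart.

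Card9 itself was the one named gene that passed the test. Its signal was 8.42, 8.43 and 8.75 in wild-type cells of experiments 1, 2 and 3 and 6.39, 5.94 and 5.70 in Card9-/- cells. All 3 Card9-/- arrays lay below all 3 wild-type arrays, at the 50.2 to 63.0 percentile of clusters against the 82.2 to 87.6 percentile. The log2 difference, Card9-/- minus wild type averaged over the experiments, was −2.52 (standard error 0.217, n = 3 experiments), a 5.74-fold lower signal (limma with the experiment as a block, Benjamini-Hochberg adjusted p = 0.00229). Without experiment 2 the difference was −2.54 and did not pass (adjusted p = 0.304). Where the probes of this cluster lie relative to the deleted part of the gene was not given.

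Of 28944 clusters tested, 11 were lower in Card9-/- cells at an adjusted p under 0.05, which is 0.038% of them, and 0 were higher (0%). At an unadjusted p under 0.05 the test gave 642 lower clusters (2.22%) and 702 higher ones (2.43%), and these became 1134 and 302 when each array was centred on its median, which also lowered the share of clusters above 0 from 57.4% to 41.5%. The count of lower clusters was 4, 1 and 7 without experiment 1, 2 and 3, and it was 1, Card9, in a fit without the experiment as a block. The 10 called clusters beside Card9 name no gene. They hold 6 distinct sets of values, because 4 of them carry one identical set and 2 carry another. Cluster 10389717 had signals of 7.08, 7.74 and 7.93 in wild-type and 5.09, 5.60 and 5.80 in Card9-/- cells, a difference of −2.09. Cluster 10468877 had 6.49, 7.66 and 6.83 against 4.25, 4.13 and 4.29, a difference of −2.77, with Card9-/- signals of experiments 1 and 2 below the lower quartile of their arrays. In both clusters all Card9-/- arrays lay below all wild-type arrays. The 4 identical clusters had a difference of −3.39, the largest drop on the arrays (signals of 8.97, 9.98 and 9.63 against 5.04, 5.98 and 7.40). On the IC surface 10 of the 11 called clusters were also below 0 and 8 passed, Card9 among them, where 0.117% of all clusters were called lower and 0.0449% higher (47 clusters in all, against 76, 3 and 116 without experiment 1, 2 and 3).

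**Figure D1:**
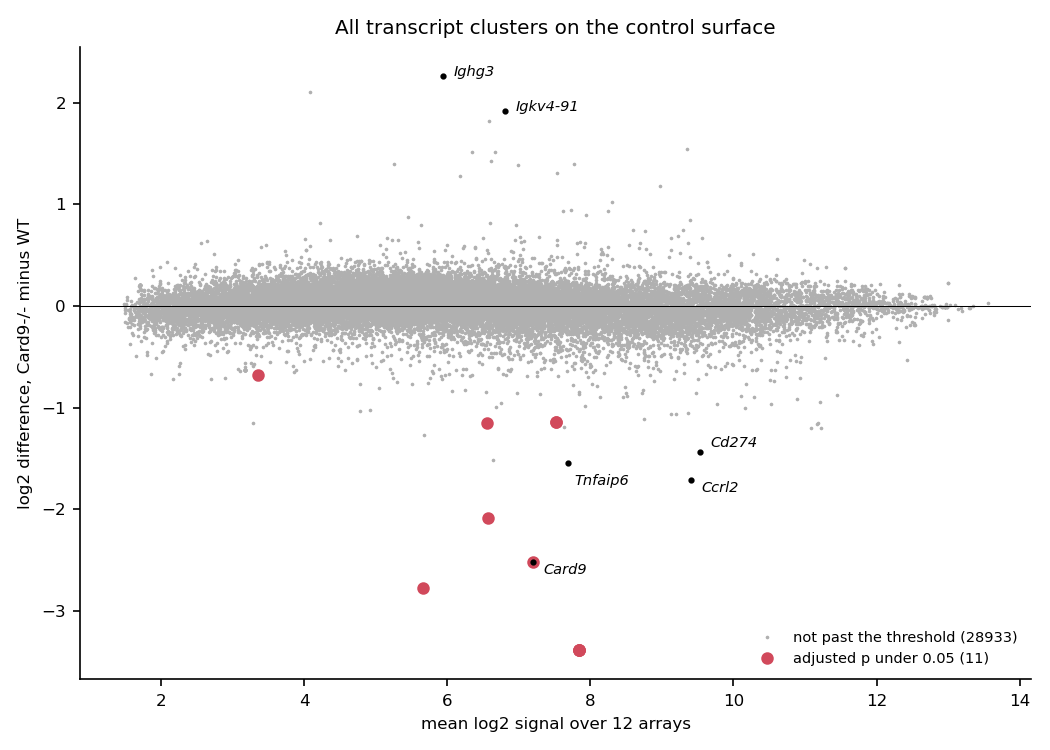
Card9-/- minus wild type on the control surface (vertical axis, log2 difference) against the mean signal over 12 arrays (horizontal axis, log2) for 28944 transcript clusters. The 11 clusters past the threshold (filled circles, of which 6 overlap because their values are identical to one another in 2 sets) all lie below 0, and Card9 is at −2.52.

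The named genes next to Card9 did not pass the adjustment over all clusters, and their values are given as such. Tnfaip6, which encodes the hyaluronan-binding protein TSG-6 of inflamed tissue, had signals of 6.82, 8.20 and 9.25 in wild-type and 5.95, 6.65 and 7.04 in Card9-/- cells. It was lower in each experiment, but the genotypes overlapped across experiments, since wild-type cells of experiment 1 lay below Card9-/- cells of experiment 3. The difference was −1.54 (95% confidence interval −2.06 to −1.03, adjusted p = 0.0849 in limma), and over experiments 2 and 3 alone it was −1.88 and passed (adjusted p = 0.0446). On the IC surface the difference of Tnfaip6 was −1.59 and passed (adjusted p = 0.0293).

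Ccrl2, an atypical receptor that binds the chemoattractant chemerin, had 9.18, 9.96 and 9.81 in wild-type against 6.40, 8.60 and 8.81 in Card9-/- cells. Here the groups did not overlap, and experiment 1 showed the widest gap (difference −1.71 over the 3 experiments, adjusted p = 0.403). Cd274, which encodes the T cell inhibitory ligand PD-L1, had 9.82, 10.76 and 9.45 against 7.68, 9.67 and 8.38 (difference −1.43, adjusted p = 0.391). Cd274 was lower in each experiment, with 1 overlapping pair of arrays across experiments. Cdk5rap1, a mitochondrial tRNA-modifying enzyme, had 7.61, 7.91 and 6.64 against 6.81, 5.91 and 4.88 (difference −1.52, adjusted p = 0.211, and −1.88 with an adjusted p of 0.0171 over experiments 2 and 3 alone). Other bright genes with lower signals in 3 of 3 experiments were Plk2, a polo-like kinase (−1.19, and −1.49 with an adjusted p of 0.0424 over experiments 1 and 2 alone), and Tgm2, a transglutaminase that cross-links proteins (−1.11).

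Further genes with a small p or a large difference were Wdfy1, an adaptor of Toll-like receptor signalling (−0.54), Cdc42ep2, an effector of the GTPase Cdc42 (−0.60), the protease gene Asprv1 (−0.71), and the class I histocompatibility genes H2-K2 (−0.74), H2-Q4 (−1.06) and H2-Q5 (−1.06). The last 3 belong to a family of near-identical copies whose probes can share transcripts, and they are uncertain as separate genes. Of 19 measured class I genes, grouped by name after their values were seen, 9 were below 0 and 10 above. Their median of 0.03 turned to −0.02 with median centring. The split went with the signal. The 10 above 0 were all H2-M genes, and every class I gene brighter than the brightest of these was below 0. In all 3 experiments 8 of the 19 were lower and 4 higher. At an unadjusted p under 0.05, 4 were lower and 0 higher. The adjusted p of Wdfy1, Cdc42ep2, Asprv1, H2-K2, H2-Q4 and H2-Q5 was 0.211 to 0.903. The microRNA gene Mir29a (−0.57) had a small p as well, at signals of 2.66 to 3.68, below the lower quartile of its array. Of all 28944 clusters, 3691 (12.8%) were lower and 5208 (18%) higher in all 3 experiments, so that the same direction in 3 of 3 was not rare.

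**Figure D2:**
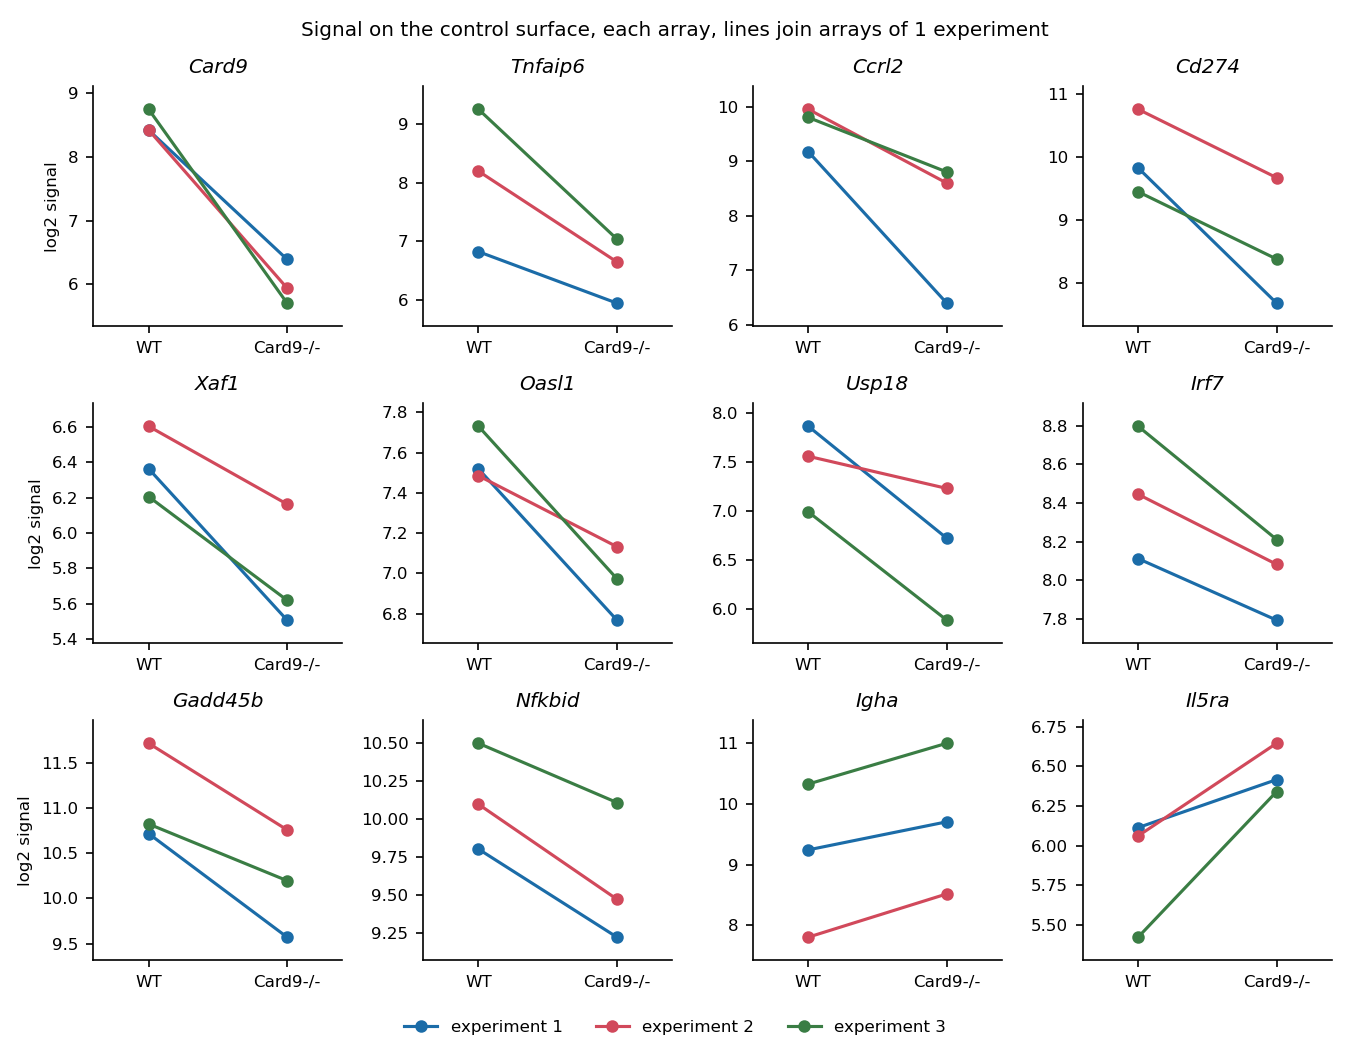
Log2 signal (vertical axes, scaled per gene and not starting at 0) of 12 genes on the 6 control-surface arrays, wild type (WT) at the left of each panel and Card9-/- at the right. Each line joins the arrays of 1 experiment, so all 3 lines slope down for Card9 and up for Igha, while the height of the lines differs between experiments.

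Interferon-stimulated genes lay mostly below 0. Cells make type I interferons when they sense foreign nucleic acids or bacterial products, and the interferon receptor then drives, through JAK kinases, a set of antiviral sensors and effectors whose promoters hold an interferon-stimulated response element. Of 40 listed sensors and effectors 35 were measured by a cluster of their own, and 33 of these were below 0, where 42.6% of all clusters were. 22 were lower in all 3 experiments, and 15 had an unadjusted p under 0.05, all of them lower, but 0 passed over all clusters. The list median was −0.30, beside 0.03 for all clusters, and it was −0.22, −0.20 and −0.50 in experiments 1, 2 and 3. A second background is the 10557 genes with a mean signal above the median, since the listed genes were brighter than most clusters. Of these 5282 were below 0, 1987 were lower in all 3 experiments and 3.52% were lower at an unadjusted p under 0.05. The NF-kB, immediate early and Toll-like lists below were bright as well, and the same background applies to their counts.

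The smallest p values of this list belonged to Xaf1 and Oasl1. Xaf1, a proapoptotic interferon-induced gene, had signals of 6.36, 6.60 and 6.21 in wild-type and 5.51, 6.16 and 5.62 in Card9-/- cells. Oasl1, a member of the oligoadenylate synthetase family without enzymatic activity, had 7.52, 7.48 and 7.73 against 6.77, 7.13 and 6.97. In both genes all Card9-/- arrays lay below all wild-type arrays, which was so for 0.795% of all clusters. The differences were −0.63 (standard error 0.110) for Xaf1 and −0.62 (standard error 0.117) for Oasl1, with adjusted p values of 0.231 and 0.316.

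Oligoadenylate synthetases make the messenger that activates RNase L. Oas2 had a difference of −0.90, with −1.13, −0.13 and −1.43 in experiments 1, 2 and 3. Oas3 had −0.80 and Oasl2 −0.66. Rtp4, which limits several RNA viruses, had −0.86, and Zbp1, a sensor of Z-form nucleic acids that triggers necroptosis, had −0.54. Ifit1, whose protein binds viral RNA without a 2'-O-methyl cap, had −0.83, Rsad2, which encodes the antiviral enzyme viperin, −0.85, and Epsti1 −0.43. Each of these 8 genes was lower in 3 of 3 experiments with overlapping genotypes across experiments, and the smallest of the 3 differences was in experiment 2 for all but Zbp1 and Epsti1. Their adjusted p values were 0.403 to 0.954.

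**Figure D3:**
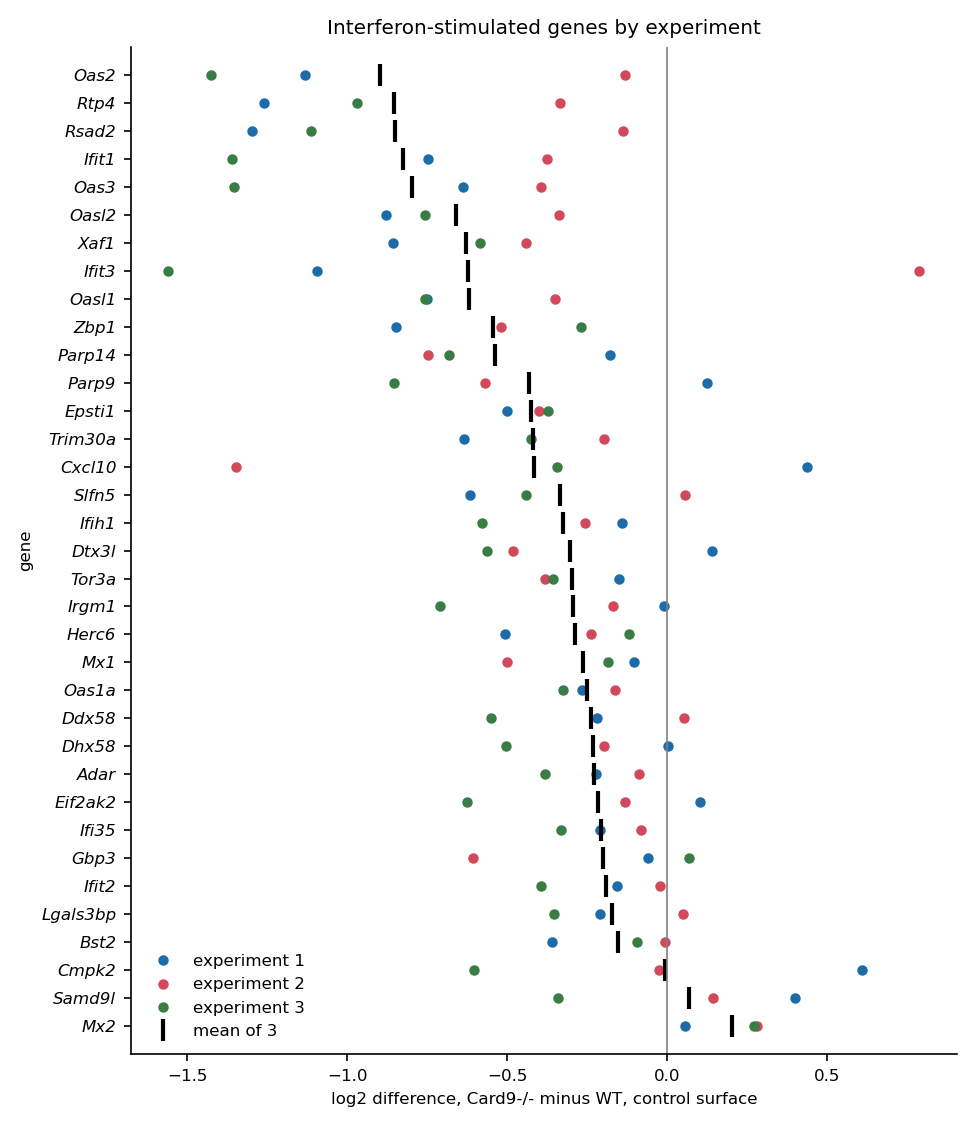
Log2 difference, Card9-/- minus wild type, on the control surface (horizontal axis) for the 35 measured interferon-stimulated genes (vertical axis), in each experiment (circles) and as the mean of 3 (bars). The bars of 33 genes lie below 0.

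Promoters are shown because genes of this kind are known by a shared response element. Of the 35 genes, 26 have a promoter window in the RefSeq table for GRCm38.p6, from 250 bases before to 50 after the start, and 14 of the 26 (53.8%) hold the core of the element, which is GAAA, NN and GAAA in a row, on either strand. Of 27025 genes with such a window 3.99% hold it, while the kB motif, GGGA, NN and TTCC in a row, searched likewise, is in 2 of the 26 (7.69%) and in 1.63% of all genes. The 4 members with the smallest p among those with the core were Oas3 (chr5:120777610-120777909, minus strand), Ifit1 (chr19:34640639-34640938, plus strand), Rsad2 (chr12:26456403-26456702, minus strand) and Ifih1 (chr2:62646206-62646505, minus strand). They are written 5' to 3' on the strand of the gene, in lower case with each match of the core in capitals, so that a core on the other strand reads as TTTC, NN and TTTC.

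Oas3: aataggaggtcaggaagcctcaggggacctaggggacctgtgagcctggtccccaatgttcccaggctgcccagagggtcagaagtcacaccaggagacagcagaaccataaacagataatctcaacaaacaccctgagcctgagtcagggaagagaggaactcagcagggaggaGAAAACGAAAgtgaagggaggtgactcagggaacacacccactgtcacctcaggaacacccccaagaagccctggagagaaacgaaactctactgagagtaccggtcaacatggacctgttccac

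Ifit1: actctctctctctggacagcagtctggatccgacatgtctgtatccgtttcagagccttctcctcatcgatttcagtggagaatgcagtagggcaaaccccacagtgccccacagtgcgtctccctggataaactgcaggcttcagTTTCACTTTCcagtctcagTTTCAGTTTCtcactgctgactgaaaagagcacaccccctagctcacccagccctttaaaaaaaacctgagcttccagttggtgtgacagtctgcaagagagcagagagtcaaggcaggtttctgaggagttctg

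Rsad2: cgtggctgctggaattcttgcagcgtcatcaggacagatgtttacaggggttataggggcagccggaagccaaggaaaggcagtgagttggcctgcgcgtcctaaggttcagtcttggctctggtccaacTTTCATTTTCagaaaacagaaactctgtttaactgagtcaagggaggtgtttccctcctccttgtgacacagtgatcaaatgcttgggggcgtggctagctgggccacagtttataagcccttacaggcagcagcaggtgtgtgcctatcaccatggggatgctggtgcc

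Ifih1: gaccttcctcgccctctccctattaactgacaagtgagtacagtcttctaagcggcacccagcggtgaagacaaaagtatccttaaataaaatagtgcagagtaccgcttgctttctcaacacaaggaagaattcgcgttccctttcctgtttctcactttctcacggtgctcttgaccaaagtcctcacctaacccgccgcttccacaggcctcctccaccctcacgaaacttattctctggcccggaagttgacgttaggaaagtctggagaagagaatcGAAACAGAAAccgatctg

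Ifit1 holds the core in 2 places and the other 3 genes in 1 place. Xaf1 and Oasl1, with the smallest p values of the list, do not hold these letters in their windows. In Ifih1, which encodes the RNA sensor MDA5, the match lies after the start, and its difference was −0.33. A match is a description of the sequence only.

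The genes that carry and restrain interferon signals were nearer to 0. Of 19 measured ligands, receptors and JAK-STAT factors 14 were below 0, 3 had an unadjusted p under 0.05 and 0 passed over all clusters, with a median of −0.18. Usp18, which removes ISG15 from proteins and blocks the interferon receptor, had signals of 7.86, 7.56 and 6.99 in wild-type and 6.72, 7.23 and 5.89 in Card9-/- cells. It was lower in each experiment, least in experiment 2 (difference −0.86, adjusted p = 0.338). Irf7, the master factor of type I interferon genes, had 8.11, 8.45 and 8.80 against 7.79, 8.08 and 8.21 (−0.42). Socs3, a feedback inhibitor of JAK kinases, had −0.56 without overlap of the genotypes, but a second cluster of Socs3 had −0.06. Irf9, the DNA-binding part of the interferon-activated complex, had −0.34 (unadjusted p = 0.0698 in limma) and did not overlap either. Such a gap on the lower side was found in 0.795% of all clusters. The adjusted p values of Socs3 and Irf9 were 0.38 and 0.954 in limma.

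On the IC surface the median of the interferon-stimulated genes was −0.29, and 29 of 35 were below 0, where 53.6% of all clusters were. Xaf1 had −0.33, Oasl1 −0.66, Usp18 −0.66 and Irf7 −0.46 there. These are other arrays, but they come from the same experiments and possibly the same mice.

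Genes of NF-kB and its feedback all lay below 0, with a smaller median difference than on immune complexes. This list holds NF-kB subunits and inhibitors, with kinases, adaptors and ubiquitin enzymes of the pathway, and not only genes that NF-kB itself induces. All 22 measured members were below 0, 11 of them in all 3 experiments and 4 at an unadjusted p under 0.05, and 0 passed over all clusters. The median was −0.40, with −0.09, −0.66 and −0.41 in experiments 1, 2 and 3, and −0.21 without experiment 2. On the IC surface the median was −1.12 and 3 members passed. Nfkbid, a nuclear inhibitor of NF-kB that is made on stimulation, had signals of 9.80, 10.10 and 10.50 in wild-type and 9.22, 9.47 and 10.11 in Card9-/- cells. The genotypes overlapped across experiments, and the difference was −0.53 on the control surface (adjusted p = 0.655) and −1.18 on the IC surface (adjusted p = 0.00624). The test of the difference between the surfaces gave an unadjusted p of 0.005 for Nfkbid, which did not pass. That test passed for 0 of 28944 clusters in limma, with 1066 at an unadjusted p under 0.05. Nfkbib, which holds NF-kB in the cytoplasm, had −0.42, Tnip1, a ubiquitin-binding brake on the pathway, −0.54, and the ubiquitin ligase Birc2 −0.37 (−0.14 in its other cluster).

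**Figure D4:**
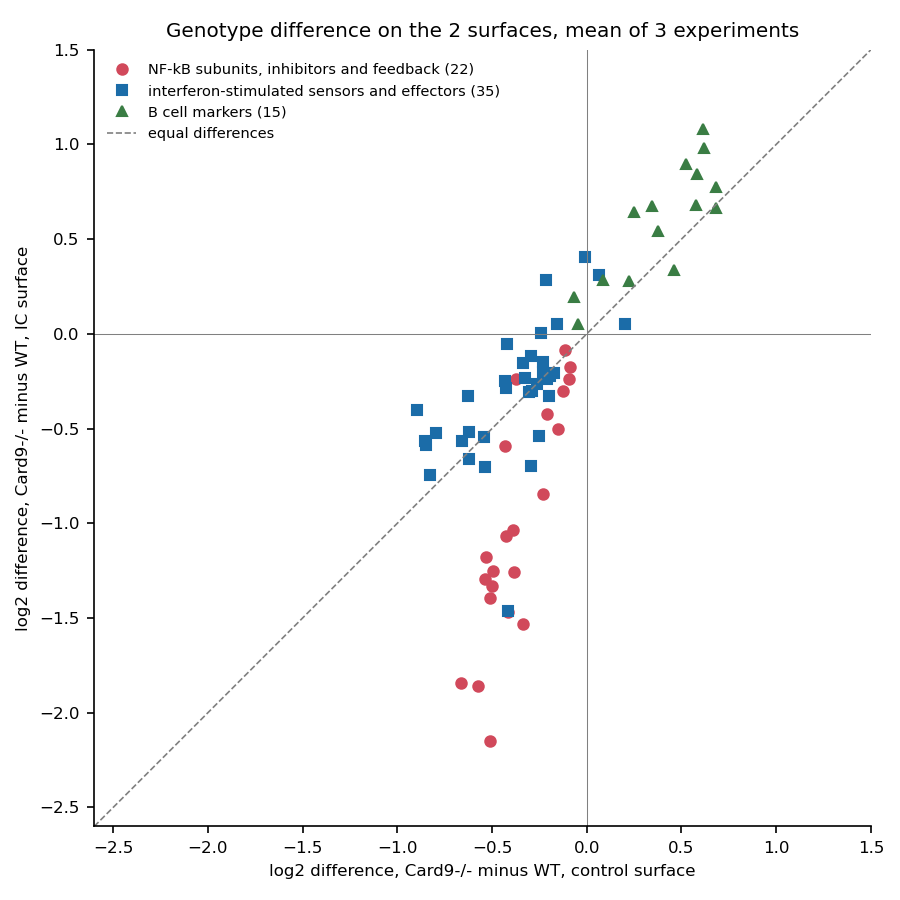
Log2 difference, Card9-/- minus wild type, on the control surface (horizontal axis) and on the IC surface (vertical axis), as means of 3 experiments, for 3 gene lists. Most of the 22 NF-kB genes lie below the dashed line of equal differences, with medians of −0.40 and −1.12, and the interferon-stimulated genes lie on both sides of it, with medians of −0.30 and −0.29.

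Immediate early genes are switched on within minutes of a signal, before new protein is made. Of 32 measured, 27 were below 0, 16 in all 3 experiments, and 9 had an unadjusted p under 0.05, all lower, with a median of −0.22 and 0 past the threshold. Gadd45b, a stress-induced gene that NF-kB can switch on, had signals of 10.72, 11.72 and 10.83 in wild-type and 9.57, 10.76 and 10.20 in Card9-/- cells. It was lower in each experiment (−1.15, −0.96 and −0.63, with a mean of −0.91 and an adjusted p of 0.36), and on the IC surface it had −1.59 and passed (adjusted p = 0.00624). Ier3 (−0.52), Ier5 (−0.49) and the small Maf factor gene Mafk (−0.54, and −0.26 without experiment 1) were lower in 3 of 3 experiments with adjusted p values of 0.942 to 0.954.

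Sensors of microbes also lay mostly below 0. Of 22 measured Toll-like and NOD receptors and inflammasome genes, 20 were below 0, 15 in all 3 experiments, and 8 had an unadjusted p under 0.05, all lower, with 0 past the threshold and a median of −0.36. Among the 10557 genes above the median signal, 5282 were below 0, 1987 were lower in all 3 experiments and 3.52% were lower at that p. Tlr1 and Tlr6 encode the partners with which TLR2 reads bacterial lipopeptides. Tlr1 had signals of 6.91, 7.37 and 6.17 in wild-type and 6.07, 6.40 and 5.45 in Card9-/- cells, a difference of −0.84, and Tlr6 had −0.66. Irak2, a kinase of the same pathway, had −0.57, and Nlrp3, the sensor of the best-known inflammasome, −0.50. The adjusted p values of these 4 genes were 0.931 to 0.954.

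Among chemokines and cytokines 24 of 32 were below 0 with a median of −0.15 (−0.03 without experiment 2), 5 were lower at an unadjusted p under 0.05 and 0 passed. Il1a, which encodes the alarm cytokine IL-1α, had signals of 3.74, 7.20 and 5.68 in wild-type and 3.21, 5.15 and 4.44 in Card9-/- cells. It was lower in each experiment while the level itself moved by several log2 units between experiments and lay below the lower quartile of both arrays in experiment 1. The difference was −1.27 on the control surface (adjusted p = 0.886) and −3.05 on the IC surface (adjusted p = 0.00624), and the difference between the surfaces had an unadjusted p of 0.0037. Il23a, a subunit of IL-23, had −0.72, Cxcl16 −0.48 and oncostatin M (Osm) −0.45, each lower in 3 of 3 experiments. Chemokine and cytokine genes that the study also measured by quantitative PCR did not pass. Cxcl2 had signals of 7.57, 10.15 and 11.83 in wild-type and 6.15, 9.24 and 11.85 in Card9-/- cells, lower in experiments 1 and 2 and level in experiment 3 (difference −0.77, 95% confidence interval −1.96 to 0.42). Ccl3 had −0.54 (−1.11 to 0.03, and −0.15 without experiment 1), Il1b −0.23 (−0.81 to 0.34) and Cxcl1 −0.07 (−0.44 to 0.30). For Cxcl1 the difference was 0.01 without experiment 2.

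The list of CARD9 and its partners had a median close to 0, but single members beside Card9 were not all close to it. Of 23 measured genes of the complex and the receptors and kinases before it, 14 were below 0 and the median was −0.06, with 1 called lower and 0 higher. Bcl10 had −0.10 (95% confidence interval −0.44 to 0.25), Malt1, the protease of the complex, −0.22 (−0.68 to 0.25), Prkcd, the kinase that acts on CARD9, −0.15 (−0.41 to 0.12), and Syk −0.19 (−0.46 to 0.09). Clec4e, which encodes the receptor Mincle, had signals of 11.55, 11.95 and 11.78 in wild-type and 11.26, 11.64 and 11.34 in Card9-/- cells, lower in each experiment (difference −0.35, adjusted p = 0.954). Vav3 had −0.32. Among 10 measured Fc receptor and Src-family genes, Fcgr4, an activating IgG receptor, had −0.27 and Fcgr3 −0.17, and the median was −0.09.

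The lists of mature neutrophil functions had medians near 0. The leukotriene B4 genes had 0.10 for Alox5 (95% confidence interval −0.14 to 0.34), −0.02 for Alox5ap (−0.25 to 0.21) and 0.01 for Lta4h (−0.26 to 0.28), the last of which turned to −0.04 with median centring. Ltb4r1, the high-affinity receptor of leukotriene B4, had 0.24. The medians were −0.04 over 14 leukotriene and prostaglandin genes, −0.01 over 7 NADPH oxidase genes (0.00 with quantile normalization) and −0.01 over 16 primary granule genes. Over 21 secondary granule and mature neutrophil genes the median was −0.07, with 18 below 0 and 1 lower in all 3 experiments. In all of these lists 0 members passed. Single members lay further from 0. Ptgs2, the inducible cyclooxygenase, had signals of 8.28, 11.02 and 11.31 in wild-type and 7.26, 9.70 and 10.98 in Card9-/- cells, lower in each experiment with overlap (difference −0.89, adjusted p = 0.954). Ncf4, the p40 subunit of the oxidase, had −0.33 and was lower in 3 of 3 experiments (unadjusted p = 0.0284). S100a9, a subunit of calprotectin, had −0.16. Among 13 measured genes of the BCL-2 family and cell death, Bcl2l11, which encodes the death-promoting BIM, had −0.72 and Bbc3, which encodes PUMA, −0.34, beside a list median of −0.15. Cell cycle genes had a median of −0.02 (0.02 with quantile normalization), heat shock and stress genes −0.11 and genes of glycolysis and hypoxia −0.15. Of the 17 measured genes of glycolysis and hypoxia 14 were below 0 and 11 were lower in all 3 experiments. Their medians were −0.13, −0.14 and −0.15 in experiments 1, 2 and 3, and 0 had an unadjusted p under 0.05. Of 16 heat shock and stress genes 11 were below 0, 7 of them in all 3 experiments. Among the stress genes, Ddit4, an inhibitor of mTORC1, had 8.29, 8.09 and 8.09 in wild-type and 7.45, 7.63 and 7.55 in Card9-/- cells without overlap of the genotypes (difference −0.61, adjusted p = 0.938), and Hmox1, haem oxygenase, had −0.73.

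**Figure D5:**
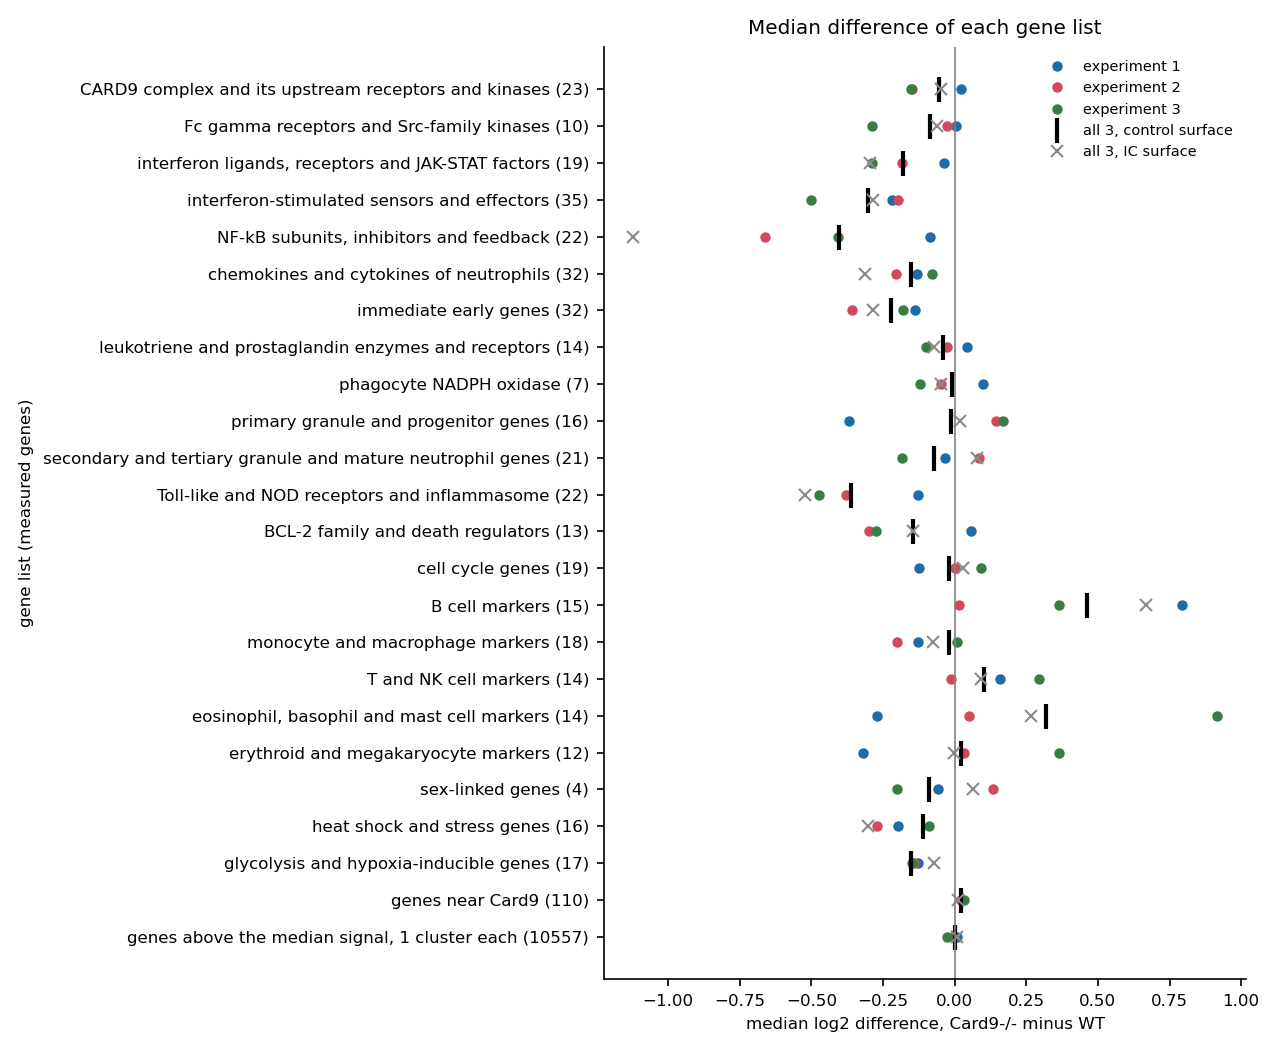
Median log2 difference, Card9-/- minus wild type (horizontal axis) for each gene list, with the number of measured genes in brackets (vertical axis), in each experiment and over all 3 on the control surface and over all 3 on the IC surface. The NF-kB list has −0.40 on the control and −1.12 on the IC surface, and B cell markers lie at 0.46 with experiment 2 at 0.01.

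Genes above 0 included transcripts of B cells and plasma cells. Of 15 measured B cell markers 13 were above 0, where 57.4% of all clusters were, 2 had an unadjusted p under 0.05 and 0 passed. Their mean level was 6.17 to 7.98 on wild-type and 6.23 to 8.32 on Card9-/- arrays, and their median difference was 0.46 (0.79, 0.01 and 0.36 in experiments 1, 2 and 3, and 0.18 without experiment 1). Igha, the heavy chain of IgA, had signals of 9.24, 7.81 and 10.33 in wild-type and 9.70, 8.52 and 10.997 in Card9-/- cells. It was higher in each experiment, with a wider spread between experiments than between genotypes (difference 0.61, adjusted p = 0.652), and on the IC surface it had 1.08 and passed (adjusted p = 0.0246). Ighg3, the heavy chain of IgG3, had 4.26, 4.63 and 5.12 against 7.59, 5.003 and 8.21, so that experiment 2 showed little of the difference of 2.26 (adjusted p = 0.467), and over experiments 1 and 3 alone it was 3.21 and passed (adjusted p = 0.00471). The wild-type signals of Ighg3 in experiments 1 and 2 were below the lower quartile of their arrays, so that its fold is against a signal near background. The light chain segment Igkv4-91 had 1.91, with a wild-type signal of 4.12 in experiment 1 that was below that quartile too. Ighm, the heavy chain of IgM, had 0.58 and 1.51 in 2 of its clusters, the second with a wild-type signal of 3.31 in experiment 2, and Vpreb3 of the immature B cell had 0.68. In bulk samples, more cells of a type and more RNA per cell cannot be told apart. The part of these cells in the other differences was not tested. In experiment 2 the B cell median was 0.01, while Igha had 0.71 and Igkv4-91 1.35, beside an interferon-stimulated median of −0.20 and an NF-kB median of −0.66.

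Markers of eosinophils, basophils and mast cells also lay above 0 in 12 of 14 cases, but not in every experiment. Their median was 0.32, with −0.27, 0.05 and 0.92 in experiments 1, 2 and 3 and 0.04 without experiment 3, and their mean level was 7.29 to 7.68 on wild-type and 7.42 to 8.34 on Card9-/- arrays. Il5ra, the receptor of the eosinophil growth factor IL-5, had signals of 6.11, 6.06 and 5.42 in wild-type and 6.42, 6.65 and 6.34 in Card9-/- cells. The genotypes did not overlap, as in 0.629% of all clusters on this side (difference 0.60, adjusted p = 0.954). Ccr3, the eotaxin receptor, had 0.80 with 0.03 in experiment 1, and Epx, eosinophil peroxidase, 0.51 with −0.24 in experiment 1. Hdc, the histamine-forming enzyme, had −0.31. Monocyte and macrophage markers had a median of −0.02 at mean levels of 7.24 to 7.40 on wild-type and 7.13 to 7.35 on Card9-/- arrays, and 12 of 18 were below 0, among them Csf1r (−0.49) and Cd68 (−0.41, unadjusted p = 0.0311), both lower in 3 of 3 experiments, and their part in the other differences was not tested. The median was 0.10 for T and NK cell markers and 0.02 for erythroid and megakaryocyte markers (−0.03 with quantile normalization and with median centring).

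Other genes with higher signals in 3 of 3 experiments did not pass either. Gapt, a transmembrane adaptor of leukocytes, had signals of 9.46, 9.43 and 9.01 in wild-type and 9.96, 10.08 and 9.87 in Card9-/- cells, and the groups did not overlap (difference 0.67, adjusted p = 0.36). Serpinb2, an inhibitor of plasminogen activators, had 7.29, 7.43 and 7.86 against 7.77, 8.40 and 9.19, which overlapped (0.93). Il17rb, a receptor subunit for IL-25, had 0.46, S100a10, the partner of annexin A2, 0.68, Ikzf3, a lymphoid factor, 0.63, and the potassium channel gene Kcnj8 0.56. Slc15a2, a peptide transporter, had 1.42 with most of it in experiment 1, where Card9-/- cells had a signal of 7.12 against 4.28, the latter below the lower quartile of its array (0.71 over experiments 2 and 3). Apobec3, a cytidine deaminase that restricts retroviruses, had 1.03 in one cluster and 0.56 in another, and Lrmda 0.93, but without experiment 1 the first Apobec3 cluster had 0.35 and Lrmda 0.53. The adjusted p values of these 9 genes were 0.312 to 0.954.

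The neighbours of Card9 were followed because a knockout can carry DNA of its strain of origin around the altered gene. Of 110 genes measured within 2 Mb of Card9, 46 were below 0 and the median was 0.02, which turned to −0.01 with quantile normalization and −0.03 with median centring. At an unadjusted p under 0.05, 4 were lower, Card9 included, and 4 were higher. Rxra, a nuclear receptor for retinoids, had signals of 8.40, 7.76 and 7.31 in wild-type and 7.52, 7.26 and 6.62 in Card9-/- cells, lower in each experiment with overlap (difference −0.69, adjusted p = 0.797). Col5a1, a collagen chain, had 0.42. The other members of this neighbourhood did not pass. Tnfaip6, Cdk5rap1, Tgm2, Il1a, Il1b, Bcl2l11, Hdc and the interferon-stimulated Zbp1 and Ifih1 lie on chromosome 2 with Card9, but outside this window. All of them were below 0. Card9, Tnfaip6, Cdk5rap1, Tgm2 and Il1a are among the 10 genes named for the largest drops of bright clusters. Of 1732 genes of chromosome 2, 58 (3.35%) were lower and 2.37% higher at an unadjusted p under 0.05, beside 2.35% and 2.53% of all genes. The share lower ran from 0.947% on the X chromosome to 3.53% on chromosome 12. Whether DNA of the strain of origin reaches beyond the window was not tested.

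The experiments agreed only in part over the whole array. Taken across clusters, which are not independent, the 3 sets of differences correlated at 0.128 between experiments 1 and 2, 0.127 between 1 and 3 and 0.234 between 2 and 3. Differences below −1 numbered 118, 89 and 82 in experiments 1, 2 and 3, and differences above 1 numbered 65, 17 and 45.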

How the data were processed

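Affymetrix mouse gene arrays were used, and the authors deposited a log2 signal for each transcript cluster, made by a normalization method not given in the sources used here. Gene symbols came from the platform's annotation. Of 35556 rows 6612 control rows were left out, and of the 28944 clusters tested 21789 name 1 gene, 1621 several and 5534 none. The 12 arrays of 4 groups entered 1 fit (lmFit and eBayes of limma 3.58.1 in R 4.3.3) with the experiment as a fixed block, two-sided tests, Benjamini-Hochberg adjustment over all clusters and a threshold of 0.05. The numbers mark experiments done at separate times, and they pair the arrays: deviations from the group means correlated at 0.671 to 0.867 for the same experiment and at −0.727 to 0.355 for different ones. The code was tested on simulated data. A gene of the 23 lists is represented by its brightest cluster that names it alone. Genes were named from a set, not printed whole, of Card9, every called cluster, 10 in each direction by smallest p and 10 by size among bright clusters (both with 1 direction in 3 experiments), the 4 smallest p of each list (10 for interferon-stimulated genes), the CARD9 list, sex-linked genes and those of quantitative PCR. Ly6g was named for its label and Ifih1 by the rule for promoters, the 4 smallest p with the core. Members, lists and tests were chosen with earlier results of these data known. Alternatives were other blocks, scalings, filters and estimates of the spread, fewer arrays, and each experiment left out. Figures were drawn with matplotlib 3.10.9. The precision is limited by the number of arrays. Arrays of the same genotype and experiment on the 2 surfaces entered the fit as independent, which was not tested. Their differences can move together. H2-Q5 had −0.99, −1.87 and −0.31 on the control surface and −0.88, −2.02 and −0.34 on IC in experiments 1, 2 and 3. Card9 had −2.03, −2.49 and −3.05 on the control surface and −1.67, −2.20 and −2.95 on IC. The 4 identical called clusters had −3.93, −4.00 and −2.23 on the control surface and −4.75, −4.15 and −2.25 on IC. For such genes and clusters, called ones included, the standard error and the p value can be too small.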

Additional observations from a re-analysis of the deposited data

Results flagged for a closer look

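For 2 results each experiment gave one direction on the control surface and the other direction on immune complexes, as for 703 of 28944 clusters. The called, unnamed cluster 10350471, with a mean signal of 3.36, had a log2 difference of −0.68 on the control surface and 0.33 on IC, and the 2 differed by −1.02 (unadjusted p = 8.61e-06, adjusted p = 0.249 in limma). Abhd6, which encodes a lipid hydrolase, had signals of 5.08, 5.30 and 4.89 in wild-type and 5.60, 5.80 and 5.31 in Card9-/- cells. Its difference was 0.47 on the control surface and −0.18 on IC, and the 2 differed by 0.65 (unadjusted p = 0.000326, adjusted p = 0.999 in limma).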

How the results depend on the processing

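Beside the 11 clusters called lower on the control surface, the count was 1 with no replicate block (that cluster is Card9, adjusted p = 0.0267), 7 in a fit of the 6 control-surface arrays, 6 with robust eBayes, 0 in the ordinary factorial test without block and moderation (81 lower at an unadjusted p under 0.05, and adjusted p = 0.256 for Card9 at −2.52), 5 with identical clusters tested once (chosen after seeing the data), and 1 to 7 when 1 experiment was left out, which left 2 experiments per group. The count of higher clusters was 0 to 1 when 1 experiment was left out. On IC 47 clusters were called, against 0 with no replicate block and in the ordinary factorial test, 105 with the experiment as a random block, 173 in a fit of the 6 IC arrays, 22 with median centring, and 3 to 116 when 1 experiment was left out. The test of the difference between surfaces called 0 clusters in every alternative run. Card9 had −2.77 to −2.26 when 1 experiment was left out and lost its call without experiment 2 (−2.54, adjusted p = 0.304). Of the 86 named clusters, Clec4n not counted, those near 0 changed sign: Cxcl1 (−0.148 to 0.00911 when 1 experiment was left out), Alox5ap (−0.0511 to 0.0369) and Lta4h (−0.0508 to 0.122, and −0.0444 with median centring). Tnfaip6 passed with the experiment as a random block (adjusted p = 0.0229) and without experiment 1 (0.0446), Cdk5rap1 without experiment 1 (0.0171), Ighg3 without experiment 2 (0.00471) and Plk2 without experiment 3 (0.0424). Differences that moved by over 1.5 times when 1 experiment was left out, with no call, included those of Tgm2 (−0.74), Osm (−0.28), Cxcl2 (−0.44) and Ighm 10402864 (0.38) without experiment 1, H2-Q5 (−0.65), Cxcl16 (−0.28) and Nfkbib (−0.26) without experiment 2, and Oas3 (−0.52) and Epx (0.22) without experiment 3. The cause of these shifts was not tested. The median of the interferon-stimulated list was −0.38 to −0.27 when 1 experiment was left out, with 0 members called under each of the 13 alternatives.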

Other observations

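Gene families that no list held as a whole were grouped by name after their values were seen, and they are given without a test. Igha and Ighm are also among the B cell markers above, and H2-Ab1, H2-Aa and H2-Eb1 among the monocyte and macrophage markers. Of 11 measured immunoglobulin chain genes 10 were above 0 and 8 were higher in all 3 experiments, beside 57.4% and 18% of all clusters. At an unadjusted p under 0.05, 9 were higher and 0 lower, and 0 passed over all clusters. Igkv19-93, the gene below 0, had −0.17 in its brightest cluster and 0.41 in another. The median of the family was 1.18 on the control surface (1.99, 0.40 and 0.99 by experiment) and 1.26 on the IC surface. The 8 class II histocompatibility genes, which B cells and other antigen-presenting cells also express, had a median of −0.01 (0.48, −0.11 and −0.00 by experiment), which turned to 0.01 with quantile normalization.

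Ribosomal protein genes lay slightly above 0. Of 36 genes of the large subunit 31 were above 0 with a median of 0.11, and of 31 genes of the small subunit 26 were above 0 with a median of 0.16. With median centring 28 and 25 were above 0, with medians of 0.06 and 0.10. In experiment 2 the medians were 0.01 and 0.05. Of these genes 0 passed over all clusters, and 2 and 1 had an unadjusted p under 0.05.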
